A study of Mus musculus with 12 samples.

Results

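Immediate early genes were described here in hematopoietic stem cells (HSCs) of young and old mice, the self-renewing marrow cells from which all blood lineages arise. The members were taken by gene name: Junb, Jun, Jund, Fos, Fosb and Atf3, which encode transcription factors of or close to the AP-1 family, and Cyr61, Egr1, Ier2 and Dusp1, which respond with them. Of these 10 genes, 3 have a row among the 14143 genes of the deposited table, namely Junb, Atf3 and Cyr61. The other 7 were not analysed here. Expression was given as FPKM, a fragment count corrected for transcript length and for the number of mapped fragments.

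All cells came from female C57BL/6 mice and were sorted from marrow as cells lacking lineage markers and positive for Sca-1 and c-kit, without CD48 and CD135. CD150 then separated a CD150-low fraction, called lymphoid-biased (Ly-HSCs), from a CD150-high fraction, called myeloid-biased (My-HSCs). Old mice were 18 months of age, from an aging colony. Young mice were 8 to 10 weeks of age per the sample labels and up to 12 weeks per the protocol, and came from other suppliers, so age and source of the mice cannot be told apart. Each of the 4 groups (young Ly-HSC, old Ly-HSC, young My-HSC, old My-HSC) held 3 libraries, numbered 1 to 3, from 3 separate groups of mice. The p-values measure the spread between libraries within the 4 groups, with all libraries counted as independent. Old Ly-HSC and My-HSC libraries of the same number deviated together, so the libraries of the old subsets are not fully independent. In sorted bulk cells, fewer cells that express a gene and less RNA of it per cell cannot be told apart.

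Immediate early genes are transcribed within minutes of a stimulus without needing new protein, because their activators are already in the cell and are switched on by kinases. Growth factors, cytokines and stress act through the MAP kinases on serum response factor, its Elk partners and the CREB/ATF proteins, while cell shape and matrix contact act through MRTF and through YAP and TAZ with TEAD factors. AP-1 is a dimer of JUN proteins with FOS or ATF proteins, and JunB is the JUN protein best known in HSCs for restraining their cycling and myeloid output in mice. These genes also answer to tissue dissociation and sorting, which all libraries here went through.

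Junb (ENSMUSG00000052837.6) lies on the minus strand of chromosome 8 from 84974484 to 84978718 in GRCm38, with its whole coding transcript in a single exon. Cyr61 (ENSMUSG00000028195.4, named Ccn1 in the annotation) lies on the minus strand of chromosome 3 from 145646976 to 145649981, in 5 exons. Atf3 (ENSMUSG00000026628.13) lies on the minus strand of chromosome 1 from 191170296 to 191218039, and its coding transcripts have 4 exons. The promoters of Junb, the member called with age, and of Cyr61, the member listed at 0 in most Ly-HSC libraries, are shown so that the sequence before the start of each can be compared. Each is the 250 bases before the RefSeq start in GRCm38.p6, minus strand, at chr8:84978749-84978998 and chr3:145649986-145650235. Capitals mark matches to the motifs named after them.
Junb: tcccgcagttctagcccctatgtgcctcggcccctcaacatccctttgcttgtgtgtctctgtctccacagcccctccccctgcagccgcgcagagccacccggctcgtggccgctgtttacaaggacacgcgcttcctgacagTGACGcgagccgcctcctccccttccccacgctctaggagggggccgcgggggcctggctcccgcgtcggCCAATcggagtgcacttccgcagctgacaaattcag
Cyr61: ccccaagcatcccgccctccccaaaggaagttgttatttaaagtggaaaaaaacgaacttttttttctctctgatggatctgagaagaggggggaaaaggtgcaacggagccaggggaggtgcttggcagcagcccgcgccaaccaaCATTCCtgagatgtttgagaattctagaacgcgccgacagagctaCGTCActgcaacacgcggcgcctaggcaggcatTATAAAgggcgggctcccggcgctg

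The windows were searched on both strands for TGACG (the core bound by CREB and ATF proteins), TGANTCA (AP-1), GGAATG (TEAD), TATAAA (the TATA box), CCAAT and the CArG box of serum response factor. Junb held TGACG at position -106 from the start and CCAAT at -36, in a window of 66.4% G and C. Cyr61, at 54.8% G and C, held TATAAA at -25 and, read from the opposite strand, the CREB/ATF core at -58 and the TEAD letters at -103. The Atf3 window, at chr1:191183334-191183583 before its RefSeq start, lies inside the annotated gene, whose minus-strand start is at 191218039. Of its bases 7 are annotated as untranslated region. This window held the CREB/ATF core at -7, also on the opposite strand. TGACG was thus in all 3 windows, and in 17.8% of 32851 RefSeq promoter windows of the same length. The TEAD letters were in 12.6% of those windows, TATAAA in 12.4% and CCAAT in 33.8%. Neither TGANTCA (6.75% of windows) nor the CArG box (1.47%) was found in the 3, which says only that these letters are not in these bases.

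The libraries differed in how completely low genes were recorded. The sum of FPKM ran from 211455 to 228391, and read totals are unknown. Between 12.1% and 34.1% of the genes given were listed at exactly 0 in a library, from 25.0% to 34.1% in young Ly-HSCs and from 12.1% to 18.2% in old My-HSCs, and genes that every cell uses are among them. Relative depth could be estimated in 6 libraries only, where it ran from 0.763 to 1.08 of that of old My-HSC library 2. The only young library among them was My-HSC library 3, so the relative depth of the young Ly-HSC libraries is unknown. Of 10 HSC marker genes 9 are in the table, with summed FPKM of 364.7 to 559.3 in every library. The sort marker CD150 (Slamf1) was at 15.0 to 35.3 FPKM in the My-HSC libraries and at 1.39 to 8.33 in the Ly-HSC libraries. Granulocyte markers set library 1 of both old groups apart: Itgam and Mmp9, the 2 of 11 listed markers in the table, summed to 227.4 FPKM in old Ly-HSC library 1 and 193.8 in old My-HSC library 1. Their sum was 19.8 and 28.9 in the other old Ly-HSC libraries, 27.8 and 21.6 in the other old My-HSC libraries, 0.369 to 33.0 in young Ly-HSCs and 0 to 6.73 in young My-HSCs. Of 10 erythroid markers 5 are in the table, and their sum was likewise highest in these libraries, at 74.4 and 54.0 FPKM against 0.0757 to 24.5 in the other 10 libraries.

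Differences between groups were tested on log2(FPKM + 1) with limma over all 12 libraries, for the 10900 genes that reached 1 FPKM in at least 3 libraries. All 3 members passed that filter, Cyr61 only through the My-HSC libraries. FPKM means are given ± SD (n = 3), and log2 differences ± their standard error. Adjusted p-values are limma's with Benjamini-Hochberg adjustment over the 10900 genes, and a gene was called when its value was under 0.05.

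Junb was among the most abundant transcripts in the table and was higher in old than in young libraries. Its mean over the 12 libraries was 211.9 FPKM, the rank of 27 in the table, so that 99.8% of genes lay below it. The value in young Ly-HSC libraries 1, 2 and 3 was 95.6, 193.1 and 140.6 FPKM. The old Ly-HSC values were 266.8, 210.2 and 239.6 FPKM. Every old Ly-HSC library was thus above every young one, although young library 2 came close to old library 2. In young My-HSCs it was 109.5, 99.3 and 198.7 FPKM. In old My-HSCs it was 339.6, 334.8 and 315.3 FPKM. The old My-HSC libraries lay close together and above all 9 others, as was the case in 2.02% of genes. Young My-HSC library 3 stood well above the 2 other young ones. Genes whose old libraries were all above the young ones made up 11.5% of those tested in Ly-HSCs and 11.3% in My-HSCs, so that a separation within 1 subset is common. All 6 old libraries were above all 6 young ones for Junb and for 1.21% of genes.

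**Figure D1:**
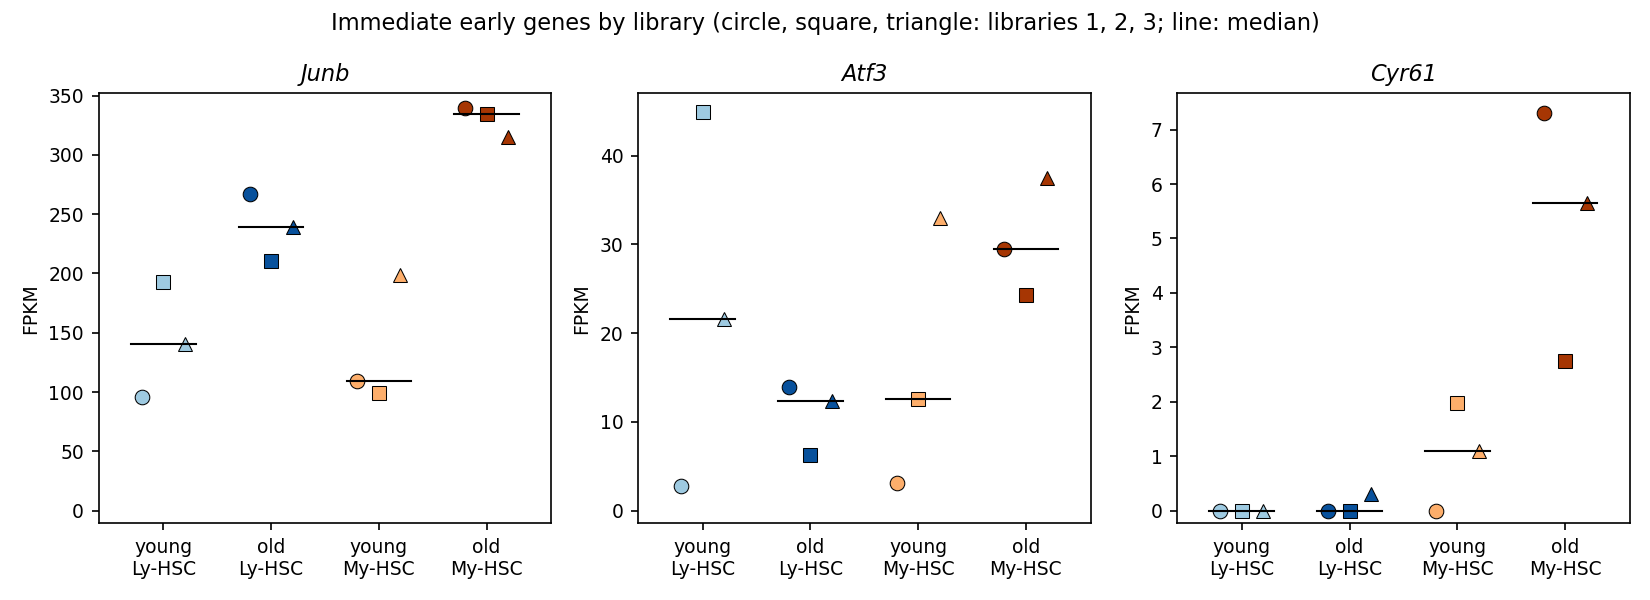
FPKM (y axis, linear, a separate scale for each gene) of Junb, Atf3 and Cyr61 in the 12 libraries by group, with circle, square and triangle for libraries 1, 2 and 3 and a line at the median. Old My-HSC libraries are the highest for Junb (315.3 to 339.6) and Cyr61 (2.76 to 7.30), while the highest Atf3 value, 44.9, belongs to a young Ly-HSC library.

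As group means, Junb was 143.1 ± 48.8 FPKM in young and 238.8 ± 28.3 in old Ly-HSCs. The My-HSC means were 135.9 ± 54.7 FPKM at the young and 329.9 ± 12.9 at the old age. Averaged over both subsets, the old minus young difference was 1.06 ± 0.19, a 2.09-fold higher value in old HSCs (adjusted p = 0.0179, confidence interval at 95% 0.65 to 1.47 on the log2 scale). Of all genes 0.844% were called in this comparison, 0.752% as higher in old cells. Junb was the only one of the 3 members called, in this or any other comparison. The median difference of all genes was 0.13, since 62.7% of genes had a positive one.

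Within each subset the age difference of Junb did not pass the threshold. It was 0.79 ± 0.27 in Ly-HSCs (1.72-fold, adjusted p = 0.235), where 0.349% of genes were called. It was 1.34 ± 0.27 in My-HSCs (2.54-fold, adjusted p = 0.0757), where 0.211% were called. The difference between these age effects was 0.56 ± 0.38, with an interval from -0.26 to 1.38 (adjusted p = 0.917), so a larger effect in My-HSCs was not shown. In that comparison limma called 0 of 10900 genes, and 616 (5.65%) had an unadjusted p under 0.05.

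The call for Junb rests on all libraries together and on counting them as independent. The old Ly-HSC and My-HSC libraries of the same number deviated together, and with the libraries of each number and age averaged, 3 values against 3, the difference of 1.06 had an adjusted p of 0.0677. Without the 4 libraries numbered 1, which include the 2 with the most granulocyte marker RNA, the difference was 0.82 ± 0.21 and the adjusted p 0.153, and what those markers contribute was not tested. Leaving out any 1 library kept the difference between 0.93 and 1.22, while the adjusted p ran from 0.00841 to 0.0637 and was above 0.05 without old Ly-HSC library 1 or 3, young My-HSC library 1 or 2, or any single old My-HSC library. In the plot of Junb under each setting, the size of the difference moves little and the adjusted p lies on both sides of 0.05.

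**Figure D2:**
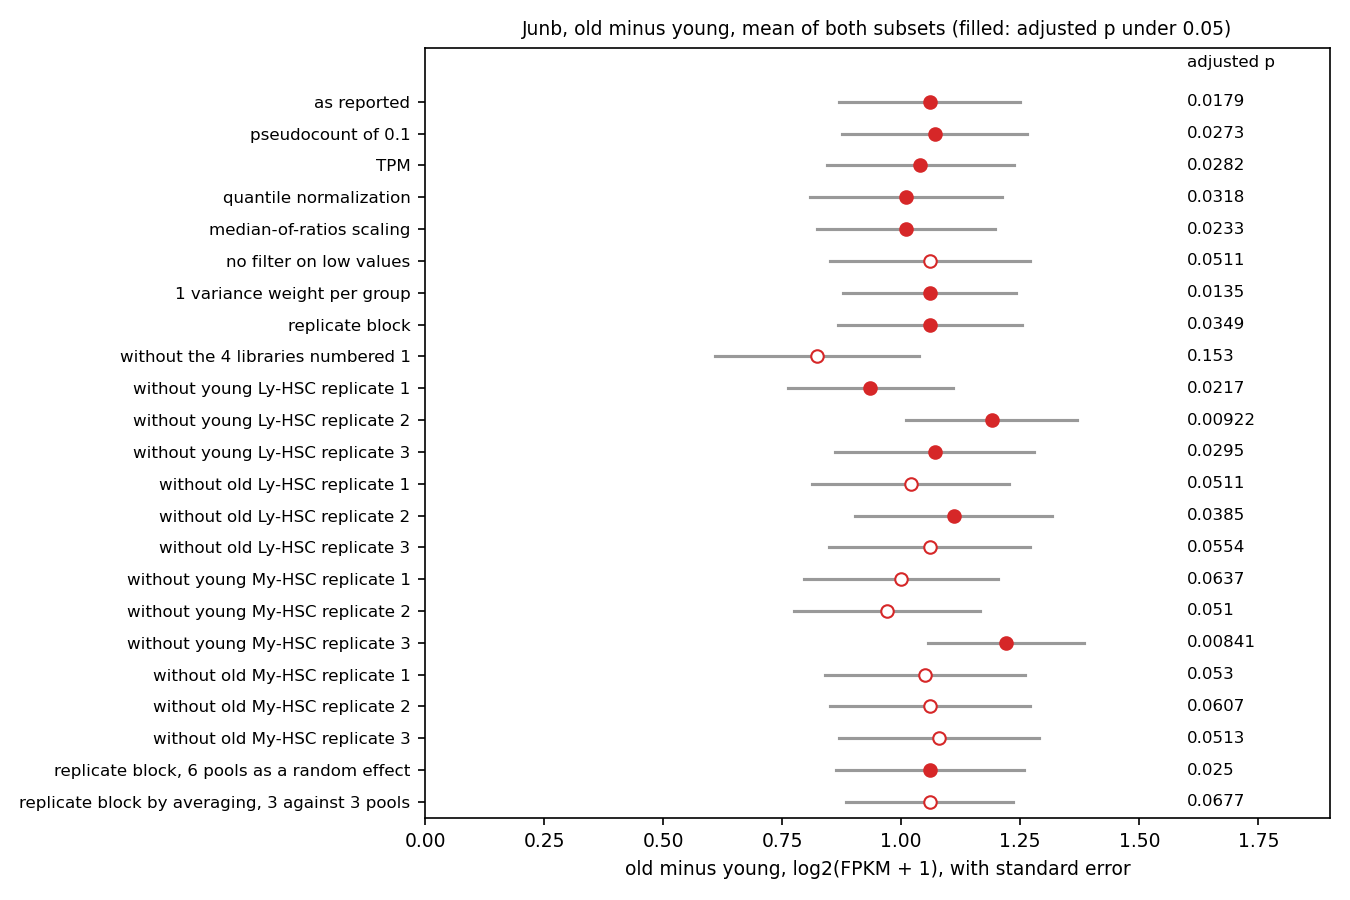
Old minus young difference of Junb averaged over both subsets (x axis, log2(FPKM + 1)), as reported and under each of 22 alternative settings (rows), with the standard error as a grey line and the adjusted p beside it; filled points have an adjusted p under 0.05. The difference stays between 0.82 and 1.22, and 12 of the 22 alternatives are filled.

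Between the subsets Junb differed little in young cells and was higher in old My-HSCs than in old Ly-HSCs without overlap of libraries. The My-HSC minus Ly-HSC difference was -0.09 ± 0.27 in young cells (adjusted p = 0.924), where 0.119% of genes were called, and its groups overlapped, whereas 8.97% of genes had every young My-HSC library above every young Ly-HSC library. In old cells it was 0.47 ± 0.27 (1.39-fold, adjusted p = 1), where 0.0275% were called and 9.19% had every old My-HSC library above every old Ly-HSC library. Averaged over both ages it was 0.19 ± 0.19 (adjusted p = 0.777). Junb also varied less between libraries in old than in young cells: the SD of its log2 value was 0.0566 in old My-HSCs and 0.17 in old Ly-HSCs, against 0.54 and 0.50 in the young groups. The median gene varied in the same order of ages, with 0.28 and 0.35 in old My-HSCs and Ly-HSCs against 0.43 and 0.68 in the young ones. This difference in spread was not tested.

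Atf3, a stress-induced member of the ATF/CREB family that pairs with JUN proteins and often represses, was not called in any comparison and spread widely between young libraries. Its mean of 20.2 FPKM put 75.7% of genes below it. In young Ly-HSC libraries 1, 2 and 3 it was at 2.75, 44.9 and 21.6 FPKM. In old Ly-HSCs it was at 13.9, 6.22 and 12.4 FPKM. The old libraries thus lay inside the range of the young ones. In young My-HSCs it was at 3.16, 12.6 and 33.0 FPKM, and in old My-HSCs at 29.5, 24.3 and 37.5 FPKM. Here the old libraries lay high, but young library 3 was among them. The lowest Atf3 values of all 12 libraries were in library 1 of both young groups, which also held the largest share of genes at 0 within each young group, and what that share contributes was not tested.

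The age difference of Atf3 was -0.48 ± 0.83 in Ly-HSCs (adjusted p = 0.841) and 1.31 ± 0.83 in My-HSCs (2.49-fold, adjusted p = 0.856). The difference between the 2 was 1.79 ± 1.18, with an interval from -0.74 to 4.33 (adjusted p = 0.908), so these data bound the contrast of subsets only loosely. Averaged over subsets the age difference was 0.42 ± 0.59 (adjusted p = 0.802), and it turned to -0.59 without the 4 libraries numbered 1. In that setting the age difference was -1.71 ± 0.54 in Ly-HSCs (adjusted p = 0.231) and 0.53 ± 0.54 in My-HSCs (adjusted p = 0.896). In old cells every My-HSC library was above every Ly-HSC library, as in 9.19% of genes. The difference was 1.45 ± 0.83 (2.74-fold, adjusted p = 1), where the standard error includes the spread of the young groups. It was 0.31 when the old groups alone were fitted (adjusted p = 0.155). With the 6 sets of libraries of the same number and age as a block it was 0.46 (adjusted p = 0.824). In young cells the subset difference was -0.34 ± 0.83 (adjusted p = 0.895), and averaged over ages 0.56 ± 0.59 (adjusted p = 0.789).

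Cyr61 (CCN1), a secreted matrix-bound protein that signals through integrins and is a standard target of serum response factor and of YAP and TAZ, was recorded almost entirely in My-HSCs. It was listed at 0 in all 3 young Ly-HSC libraries. In old Ly-HSCs it was listed at 0, 0 and 0.313 FPKM. In young My-HSC libraries 1, 2 and 3 it was at 0, 1.98 and 1.09 FPKM. In old My-HSCs it was at 7.30, 2.76 and 5.65 FPKM. The old My-HSC libraries were the 3 highest of the 12, as was the case in 2.02% of genes, and the young My-HSC libraries overlapped the Ly-HSC ones through library 1. With a mean of 1.59 FPKM only 28.3% of genes lay below Cyr61, so these values rest on few fragments, and a listed 0 may be a missed low value.

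Because Cyr61 entered the test only through My-HSC libraries, its My-HSC minus Ly-HSC difference had to be positive, and the values below describe it without supporting a difference between subsets. Averaged over ages it was 1.66 ± 0.35 on the log2(FPKM + 1) scale (adjusted p = 0.062), where 0.413% of genes were called. In old cells it was 2.43 ± 0.49 (adjusted p = 0.146), and in young cells 0.88 ± 0.49 (adjusted p = 0.442). None of these passed the threshold, and the fold behind them cannot be given against groups listed at 0. For the mean over ages the adjusted p was under 0.05 in 3 of 22 alternatives, 1 of which left out young My-HSC library 1 (0.038).

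With age, Cyr61 differed by 1.69 ± 0.49 in My-HSCs (adjusted p = 0.335), and by 1.00 there without the libraries numbered 1. The old My-HSC libraries were all above the young ones, a separation found in 11.3% of genes. Cyr61 differed by 0.13 ± 0.49 in Ly-HSCs (adjusted p = 0.929) and by 0.91 ± 0.35 averaged over subsets (adjusted p = 0.246). The difference between these age effects was 1.55 ± 0.69, with an interval from 0.06 to 3.04 (unadjusted p = 0.0421, adjusted p = 0.864). Because nearly all Ly-HSC libraries were listed at 0, it largely repeats the My-HSC age difference. It does not support an age effect particular to My-HSCs. Cyr61 is abundant in stromal and endothelial cells, so their markers were read beside it. All 10 listed endothelial and stromal markers are in the table, with summed FPKM of 10.5 to 18.1 in young Ly-HSCs, 8.55 to 17.0 in old Ly-HSCs, 7.42 to 22.8 in young My-HSCs and 8.07 to 19.8 in old My-HSCs, and 3 to 9 of them at 0 in a library. By their highest library, 5 stayed under 1 FPKM: Cdh5 (0.193 FPKM), Sparc (0.125), Cxcl12 (0.061), Col3a1 (0.288) and Lepr (0.397). Col1a1 reached 2.72 FPKM, Col1a2 1.69, Emcn 13.6 and Pdgfrb 8.85. Kdr, an endothelial receptor, was at 0 to 2.16 FPKM in Ly-HSCs and at 1.06 to 9.91 FPKM in My-HSCs. Its My-HSC minus Ly-HSC difference averaged over ages was 1.58 ± 0.44 (adjusted p = 0.158). The 2 other tested markers went the other way, Pdgfrb by -0.751 ± 0.60 (adjusted p = 0.704) and Emcn by -0.135 ± 0.34 (adjusted p = 0.924). The highest Kdr value was in young My-HSC library 1, where Cyr61 was listed at 0. What cells with these markers contribute to Cyr61 was not tested.

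**Figure D3:**
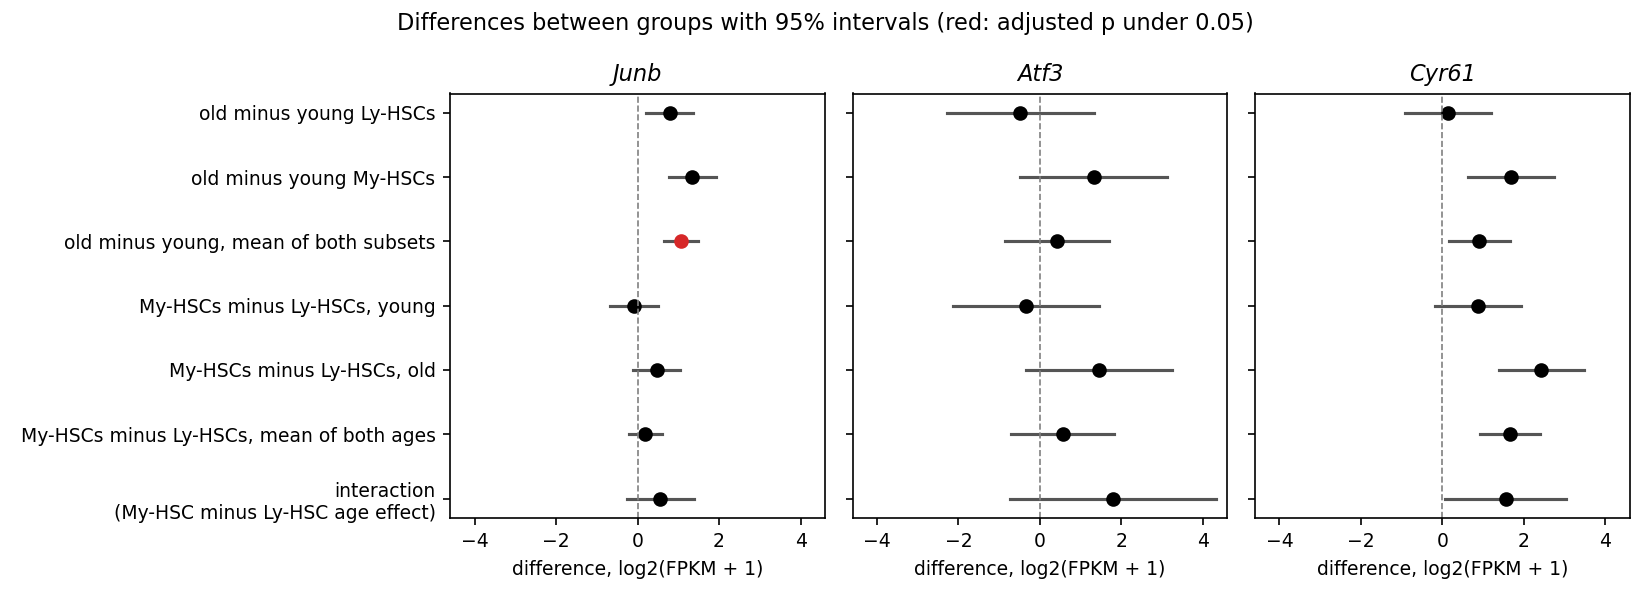
Difference between groups on the log2(FPKM + 1) scale (x axis) for Junb, Atf3 and Cyr61 in the 7 comparisons (rows), with lines for the interval at 95%; red marks an adjusted p under 0.05. Junb averaged over both subsets (1.06) is the only red point, the Atf3 intervals all cross 0, and Cyr61 lies farthest from 0 between old My-HSCs and old Ly-HSCs (2.43).

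The members shared only part of their pattern. Over the 12 libraries, which share the groups and the depth differences above, Pearson's r of the log2 values was 0.63 between Junb and Atf3, 0.54 between Junb and Cyr61 and 0.53 between Atf3 and Cyr61. The gene most like Junb among all tested was Selp, the platelet and endothelial adhesion molecule P-selectin (r = 0.933), followed by Mt1, a metallothionein (0.922), Tdrd9 (0.907), Dennd5b (0.906) and Mrpl30, a mitochondrial ribosomal protein (0.903). Selp ran from 1.08 to 12.5 FPKM in the 6 young libraries, from 25.5 to 45.5 in old Ly-HSCs and from 86.8 to 110.9 in old My-HSCs. Its age difference averaged over subsets was 3.26 (adjusted p = 0.00313), and Mt1 (2.97, adjusted p = 0.0346) and Tdrd9 (2.10, adjusted p = 0.0152) were called as well. Most like Cyr61 were Ryr2, a calcium release channel (0.952), Ccbe1 (0.936), Sema6d, a semaphorin (0.930), Clec9a, a C-type lectin (0.923) and Lmo1, a LIM-domain factor (0.922). Ryr2 was at 0 to 0.00567 FPKM in young Ly-HSCs, 0.220 to 0.392 in old Ly-HSCs, 0.681 to 1.76 in young My-HSCs and 2.95 to 6.92 in old My-HSCs. It was called between subsets (1.59, adjusted p = 0.0414), while the other 4 were not. Ryr2, like Cyr61, reached 1 FPKM only in My-HSC libraries. Its call therefore does not support a difference between subsets. All genes named here were picked for following Junb or Cyr61 over the same 12 libraries. Their values and calls are descriptions, and the correlations are the highest among 10900 genes. The age calls of Selp, Mt1 and Tdrd9 add no support to that of Junb.

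Other immediate early genes lay on the same side as Junb in most cases. Of 33 genes named, 25 are in the table and 23 were tested. Of these 18 had a higher mean in old Ly-HSCs (median difference 0.63, against 0.18 for all genes) and 22 in old My-HSCs (0.74 against 0.07). Among all genes 62.4% were higher in old Ly-HSCs and 55.8% in old My-HSCs. Averaged over subsets 22 of 23 were higher (median 0.72 against 0.13), against 62.7% of all genes, and 1 of the 23 was called. Under 3 other scalings 21 or 22 of 23 were higher. Without the 4 libraries numbered 1 only 15 of 22 were higher, with a median of 0.30 against 0.11 for all genes, so the count depends on those libraries. In Ly-HSCs alone it was then 12 of 22, with a median of 0.02.

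Plk2, a stress-responsive polo-like kinase, was the immediate early gene called with age averaged over subsets. It was at 5.61, 21.8 and 26.4 FPKM in young and 98.5, 43.1 and 62.8 FPKM in old Ly-HSCs. Young My-HSC libraries were at 54.1, 30.2 and 59.6 FPKM, and in old My-HSCs at 175.5, 133.7 and 146.4 FPKM. Old libraries were above young ones in both subsets, and young My-HSCs overlapped old Ly-HSCs. The difference was 1.86 ± 0.33 (3.63-fold, adjusted p = 0.0179), and it kept an adjusted p under 0.05 in 16 of 22 alternatives (0.0593 without the libraries numbered 1 and 0.064 with 3 averaged values against 3).

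Gadd45b, a stress sensor that activates the p38 and JNK pathway, was low in young Ly-HSCs alone. It was listed at 0, 1.84 and 0 FPKM there. Old Ly-HSCs had 15.0, 7.17 and 18.1 FPKM, young My-HSCs 13.1, 17.1 and 16.6 FPKM, and old My-HSCs 22.0, 11.8 and 16.9 FPKM. The 3 latter groups overlapped, and all their libraries were above the young Ly-HSCs. Gadd45b was called between old and young Ly-HSCs (3.26 ± 0.51, adjusted p = 0.0161) and between young My-HSCs and young Ly-HSCs (3.55 ± 0.51, adjusted p = 0.0236). It was also called between subsets averaged over ages (1.95 ± 0.36, adjusted p = 0.0336). Young Ly-HSCs are the group with the most genes at 0, and what that contributes was not tested. The calls held in 16 of 22, 10 of 23 and 7 of 22 alternatives. All 3 were lost with the library number as a block (adjusted p = 0.0585, 0.0626 and 0.0749) and without the libraries numbered 1 (0.117, 0.0779 and 0.136). Both subset calls were also lost with the 6 sets of libraries of the same number and age as a block (0.0579 and 0.0698). The 2 age effects of Gadd45b differed by -3.18 ± 0.71 (adjusted p = 0.682).

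Btg2, an antiproliferative gene, and Gadd45g, a relative of Gadd45b, had large differences that were not called. Btg2 was at 15.9, 17.9 and 41.3 FPKM in young My-HSCs and at 77.3, 66.2 and 77.5 FPKM in old My-HSCs. In Ly-HSCs, the values of 16.0, 47.1 and 43.2 FPKM in young and 43.6, 51.9 and 28.5 FPKM in old cells overlapped. Its age difference in My-HSCs was 1.65 ± 0.42 (3.13-fold, adjusted p = 0.204). Gadd45g, averaged over subsets, differed by 2.68 ± 0.77 (adjusted p = 0.132), with old values of 7.27 to 76.4 FPKM, the highest of each subset in library 1, against 0.129 to 28.3 FPKM in young cells.

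**Figure D4:**
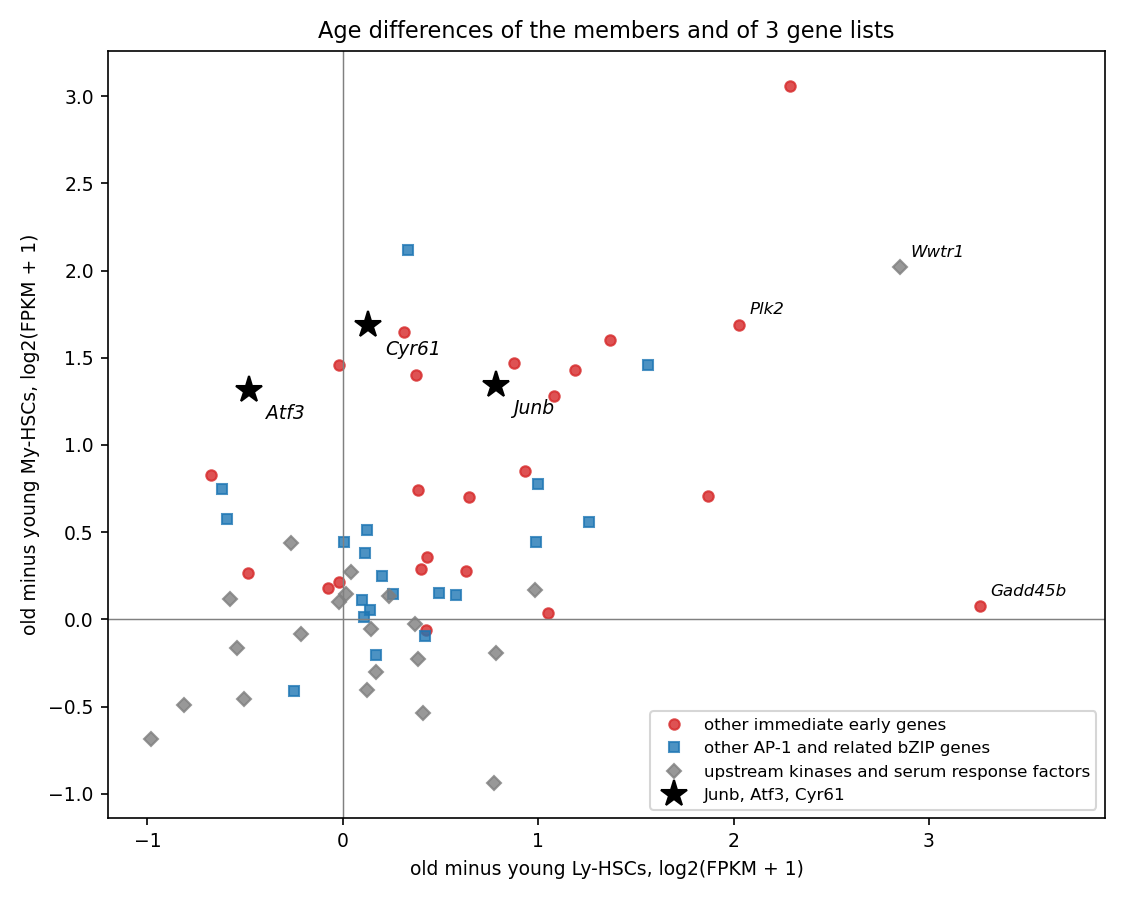
Age difference in Ly-HSCs (x axis) against that in My-HSCs (y axis), both on the log2(FPKM + 1) scale, for the 3 members (stars) and the tested genes of 3 lists (23 other immediate early genes, 20 other AP-1 and related genes, 21 upstream kinases and serum response factors). Nearly all immediate early genes (22 of 23) lie above the horizontal zero line, as do the 3 members, while the kinases scatter around both zero lines; called genes that are not members are named.

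Other AP-1 and related bZIP genes, the possible partners and relatives of JunB, held no called gene with age. Of 26 named, 22 are in the table and 20 were tested. A higher mean in old cells was found for 17 in either subset and on average. Of all genes 62.4% were higher in old Ly-HSCs, 55.8% in old My-HSCs and 62.7% on average. After quantile normalization 14 of 20 were higher in old Ly-HSCs, and 16 in old My-HSCs and on average. The median difference in Ly-HSCs was 0.185, against 0.183 for all genes, and in My-HSCs 0.31 against 0.07. The median difference averaged over subsets was 0.22, against 0.13 for all genes. The smallest p-values belonged to Nfe2l2, which encodes the antioxidant regulator NRF2 (0.71 ± 0.21, adjusted p = 0.144), Maf (1.51 ± 0.53, adjusted p = 0.208) and Ddit3, the stress factor CHOP (0.36 ± 0.16, adjusted p = 0.311). Nfe2l2 was at 34.1, 26.1 and 14.1 FPKM in young and 60.1, 37.6 and 46.5 FPKM in old Ly-HSCs, without overlap. In My-HSCs it was at 40.2, 30.5 and 32.5 FPKM in young and 53.9, 46.9 and 40.3 FPKM in old cells, where old library 3 was just above young library 1. Fosl1, which encodes the FOS-related protein FRA1, differed by 2.12 ± 0.90 with age in My-HSCs (adjusted p = 0.619). It was at 0, 2.37 and 3.80 FPKM in young and 15.2, 3.94 and 15.7 FPKM in old My-HSCs, where old library 2 was close to the young ones.

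Upstream kinases and the factors they act on showed no common direction with age. Of 28 named, 23 are in the table and 21 were tested. A higher mean in old cells was found for 13 in Ly-HSCs and 8 in My-HSCs, and for 11 averaged over subsets (median 0.04 against 0.13 for all genes). The exception that was called is Wwtr1, which encodes TAZ, the coactivator that works with TEAD factors beside YAP. Wwtr1 was listed at 0 in all young Ly-HSC libraries and at 9.59, 5.76 and 4.22 FPKM in old Ly-HSCs. It was at 2.99, 1.52 and 1.85 FPKM in young and 7.15, 12.4 and 16.5 FPKM in old My-HSCs. Every old library was above every young one. Averaged over subsets the difference was 2.43 ± 0.34 on the log2(FPKM + 1) scale (adjusted p = 0.00429), and the adjusted p was under 0.05 in all 22 alternatives run (0.00346 to 0.0463). In Ly-HSCs it was 2.85 ± 0.48 (adjusted p = 0.0298), a call that held in 11 of 22 alternatives (0.0663 with the library number as a block and 0.079 without the libraries numbered 1). In My-HSCs it was 2.02 ± 0.48 (adjusted p = 0.174). The MAP kinase kinases Map2k6 (-0.83 ± 0.32, adjusted p = 0.249) and Map2k4 (0.58 ± 0.23, adjusted p = 0.263) came next and had opposite signs.

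Genes around Cyr61 in the YAP and TAZ pathway were mostly low. Of 12 CCN family and YAP/TEAD target genes named, 10 are in the table and only 5 passed the filter. Of these 4 had a higher mean in old cells averaged over subsets, as did 62.7% of all genes, and 0 were called. Amotl2, a YAP-binding protein and itself a target, had the smallest p among the 5. It was at 0.0228, 2.12 and 0.485 FPKM in young and 3.33, 3.35 and 7.75 FPKM in old Ly-HSCs. Young My-HSC libraries were at 0.917, 7.32 and 11.4 FPKM, and in old My-HSCs at 20.7, 20.8 and 25.2 FPKM. Old My-HSCs were above all other libraries, as for Cyr61 and for 2.02% of genes. Its difference was 1.85 ± 0.48 with age (adjusted p = 0.104) and 1.93 ± 0.48 between subsets (adjusted p = 0.11), neither of them called. Lats2, a kinase that restrains YAP and is induced by it, differed by 0.94 ± 0.26 with age averaged over subsets (adjusted p = 0.121). Its age difference was 1.61 ± 0.37 in Ly-HSCs (adjusted p = 0.0982) and 0.26 in My-HSCs. Lats2 was at 3.4, 3.2 and 2.6 FPKM in young Ly-HSCs and at 7.97 to 16.3 FPKM in the other groups. The following were named after their values were seen: Ctgf, the CCN relative of Cyr61, was listed at 0 in all 12 libraries, Yap1 reached at most 0.896 FPKM and Tead1 0.0834 FPKM. Tead2 was at 4.63 to 14.7 FPKM in all libraries.

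**Figure D5:**
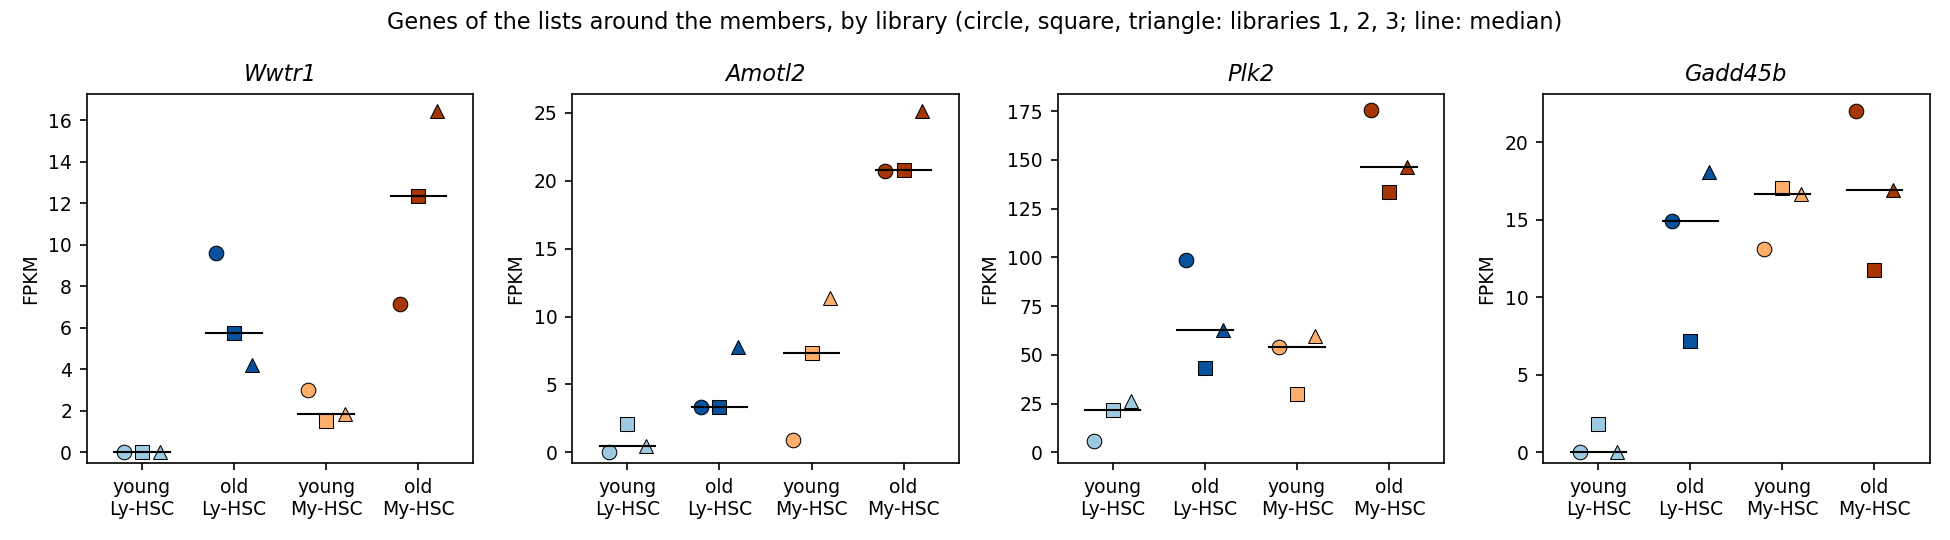
FPKM (y axis, linear, a separate scale for each gene) of Wwtr1, Amotl2, Plk2 and Gadd45b in the 12 libraries by group, with circle, square and triangle for libraries 1, 2 and 3 and a line at the median. Wwtr1, Amotl2 and Plk2 are highest in old My-HSCs, with overlap of old My-HSCs and old Ly-HSCs for Wwtr1, while Gadd45b is low in young Ly-HSCs (0 to 1.84).

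Feedback phosphatases and heat shock genes, which stress induces together with AP-1, held no called gene. Of the 9 MAP kinase phosphatases other than Dusp1, all tested, 4 had a higher mean in old Ly-HSCs and 8 in old My-HSCs. Averaged over subsets it was 6 of 9, and 4 of 9 after quantile normalization, so no direction is given for the list. Dusp10, which acts on p38 and JNK, differed by 1.75 ± 0.44 (adjusted p = 0.0931), Dusp4 by 0.82 ± 0.27 (adjusted p = 0.177) and Dusp2 by -0.70 ± 0.24 (adjusted p = 0.193). Of 12 heat shock genes 7 are in the table, all tested. In old Ly-HSCs all 7 had a higher mean (median difference 0.57 against 0.18 for all genes), in old My-HSCs 5 (0.38 against 0.07), and averaged over subsets 6 (0.47 against 0.13). The shares of all genes were 62.4%, 55.8% and 62.7%. Without the libraries numbered 1, the count of heat shock genes was 5 of 7 in each case. These genes also respond to handling of cells, and what handling contributes to Junb was not tested. The smallest p-values were those of Hspe1, a mitochondrial chaperonin (1.11 ± 0.39, adjusted p = 0.206), Dnaja1 (0.47 ± 0.19, adjusted p = 0.274) and Dnajb1 (0.38 ± 0.23, adjusted p = 0.488). Dnaja1, a cochaperone, was at 27.7, 23.8 and 23.0 FPKM in young and 43.3, 38.3 and 31.0 FPKM in old Ly-HSCs, without overlap. In My-HSCs its values of 17.3, 31.3 and 36.9 FPKM in young and 31.7, 38.3 and 37.4 FPKM in old cells overlapped. Dnajb1, another cochaperone, was at 52.7, 97.1 and 65.9 FPKM in young and 67.7, 72.0 and 86.6 FPKM in old Ly-HSCs. In My-HSCs it was at 37.0, 51.6 and 96.6 FPKM in young and 65.7, 102.0 and 109.5 FPKM in old cells. Both pairs of Dnajb1 groups overlapped.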

How the data were processed

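RNA-seq values were taken as deposited: FPKM per gene and library, in the authors' normalization per the labels; read totals are unknown. Without giving roles, the submitters' processing notes list GRCm38 (mm10), STAR, DESeq2 and bcl2fastq 2.17. The counting tool and annotation were not given in the sources used here, nor were filters on genes. Values were analysed as log2(FPKM + 1) for the 10900 genes with at least 1 FPKM in at least 3 libraries. The model had 1 mean per group over 12 libraries, with an intensity trend in the variance (limma 3.58.1, R 4.3.3; 8 residual and 5.11 prior degrees of freedom). Two-sided p-values were adjusted by Benjamini-Hochberg, and the code was tested on simulated data. Folds are on the log2(FPKM + 1) scale and understate changes of low genes.

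The members and gene lists were chosen with earlier results of these data known. Named were the members, the 5 genes most correlated with Junb and with Cyr61, and, from each list, the genes called or otherwise the 3 with the smallest p. Groups came from sample titles. Same-numbered old Ly-HSC and My-HSC libraries deviated together (correlations of 0.256, 0.233 and 0.21), so the numbers pair the old subsets; young pairs (0.0482, 0.0026 and 0.00233) and pairs across ages did not. Alternatives were other pseudocounts, scalings, filters, variance weights, blocks and left-out libraries. Blocks by number and age treat the same-numbered libraries of an age as a shared mouse group, which for the young groups is an assumption. Promoter sequences are RefSeq's (GRCm38.p6) and gene positions GENCODE's (GRCm38).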

Additional observations from a re-analysis of the deposited data

How the results depend on the processing

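Junb kept its positive age difference averaged over subsets in all 22 alternatives, and the count of called members, 1, fell to 0 in 10 of them. The count fell without a filter on low values (adjusted p = 0.0511) and without the 4 libraries numbered 1 (0.153). It fell with the 2 libraries of each number and age averaged, 3 against 3 (0.0677, an alternative chosen after seeing the data). It also fell in 7 of the 12 fits that left out 1 library, over which the count ran from 0 to 1. With a replicate block the difference was 1.06 (adjusted p = 0.0349). With the sets of the same number and age as a random effect, also chosen after seeing the data, the adjusted p was 0.025. In My-HSCs alone the count of members called with age rose from 0 to 1 with 1 variance weight per group (Junb, adjusted p = 0.00624) and ran from 0 to 1 over fits that left out 1 library (Junb, 0.0283, 0.0451 and 0.0334 without young Ly-HSC library 1, young Ly-HSC library 2 and young My-HSC library 3). Between old subsets it rose to 1 with variance weights (Cyr61). Between subsets averaged over ages it rose to 1 without the filter and with the random effect (Cyr61), and ran from 0 to 1 over left-out libraries. The block by the 6 sets of libraries of the same number and age changed no call of a member between subsets. In young cells, or with age in Ly-HSCs, and for the difference of the age effects, no alternative called a member. The causes were not tested.

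The signs that turned belonged to differences smaller than their errors: Cyr61 with age in Ly-HSCs was -0.34 after quantile normalization, and Junb between young subsets was 0.0341 after it. Leaving out 1 library at a time, Junb between young subsets ran from -0.395 to 0.156 (positive without young Ly-HSC library 2 or young My-HSC library 1 or 2). Atf3 with age averaged over subsets was -0.59 without the libraries numbered 1. Over single left-out libraries it ran from -0.0989 (without young Ly-HSC library 1) to 0.804, in Ly-HSCs from -1.51 to 0.294 (positive without young Ly-HSC library 2), and between young subsets from -1.37 to 0.452 (positive without young Ly-HSC library 2 or young My-HSC library 1). Quantile normalization moved the median age difference of all genes from 0.13 to -0.02. Read depth is unknown, so values of 0 for Cyr61 and Wwtr1 give no upper limit.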
